A study of Mus musculus with 13 samples.

Results

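A set of 7 genes of glucose and ammonia metabolism was followed through the open chromatin of the developing mouse kidney: Pck1, G6pc, Fbp1, Pcx and Slc37a4 of gluconeogenesis, and Glud1 and Glul of ammonia handling. They were chosen by name, with earlier results of these data known. Their regions were all peaks of the snATAC-seq peak list that overlapped the gene body or the 2 kb upstream of it. The rule gave 60 peaks among 300755, for 7 of the 55450 genes in the annotation. Nuclei came from whole kidneys of 2 samples labelled P0, from newborn mice, and 3 adult samples, of which adult replicate 1 was from P21 and adult replicates 2 and 3 were from P56. No allele, agent or treatment was named for any of these groups, and strain, sex and the number of animals per sample were not given for the nuclei in the sources used here. In single-nucleus ATAC-seq a transposase cuts accessible DNA in each nucleus, and here a peak was called open in a nucleus when at least 1 fragment fell in it.

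Gluconeogenesis builds glucose from lactate, amino acids and glycerol, and in the body it takes place in hepatocytes and in cells of the kidney proximal tubule. Pyruvate carboxylase (Pcx) and phosphoenolpyruvate carboxykinase (Pck1) open the pathway, fructose bisphosphatase (Fbp1) acts midway, and the transporter of glucose 6-phosphate (Slc37a4) and glucose 6-phosphatase (G6pc) release free glucose at the endoplasmic reticulum. The proximal tubule draws carbon for this pathway from glutamine, and glutamate dehydrogenase (Glud1) frees ammonia on the way, whereas glutamine synthetase (Glul) binds ammonia back into glutamine. The early part of the proximal tubule is the proximal convoluted tubule (PCT), the later part is the proximal straight tubule (PST), and the loop of Henle (LOH) follows.

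The files held 28316 nuclei, with 3361 to 7129 per sample and a median of 3371 to 6737 open peaks per nucleus. Adult replicate 2 was the shallowest sample and P0 replicate 2 the deepest by this median. Of 27834 distinct barcodes, 477 occurred in 2 or more samples. In the deposited annotation 13 clusters carried cell type names, and those named PT and PT2 were read as PCT and PST. PCT held 547 and 557 nuclei at P0 and 1551, 2459 and 2298 in the adult. PST was small at P0, with 83 and 112 nuclei, against 266, 657 and 825 in the adult. Levels are given as CPM, the open calls summed over the peaks of a gene per 1000000 open calls of the same cluster and sample, because the share of open nuclei rises with depth. PCT markers (Slc34a1, Slc5a2, Slc5a12 and Slc22a6 summed) were highest in PCT at both stages. PST markers (Kap, Slc7a13, Slc22a7 and Slc5a10 summed) were highest in PST in the adult, at 426 against 273 CPM in PCT. At P0 their sum did not separate the segments, at 260 and 309 CPM in PST and 293 and 304 in PCT. Of the 4 markers, Kap, Slc7a13 and Slc22a7 had higher P0 means in PST, at 14.2, 15.2 and 49.6 against 3.97, 10.5 and 41.1 CPM in PCT, and Slc5a10 had a lower one, at 206 against 243.

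Sequences are shown for the start regions of Pck1 and G6pc, whose levels were far higher in PCT than in LOH, and for peaks of Glud1 and Pcx away from the main starts. Pcx p14, Pcx p24 and Glud1 p5 had the largest rises between the stages in PCT among the called peaks of their genes, and Glud1 p3 was the most open Glud1 peak off the start. All are given 5′ to 3′ on the plus strand of GRCm38 (mm10), which is the coding strand of these 4 genes, and capitals mark a match to a searched motif. The promoters are from the RefSeq table for this build, up to the first annotated exon, and cover chr2:173152823-173153047 for Pck1 and chr11:101367466-101367560 for G6pc. The Glud1 stretches lie in peaks 5 and 3 counted from the start of the gene, at chr14:34332052-34332198 and chr14:34312554-34312753. The Pcx stretches lie in peaks 14 and 24, at chr19:4555322-4555521 and chr19:4588660-4588859.
Pck1 promoter: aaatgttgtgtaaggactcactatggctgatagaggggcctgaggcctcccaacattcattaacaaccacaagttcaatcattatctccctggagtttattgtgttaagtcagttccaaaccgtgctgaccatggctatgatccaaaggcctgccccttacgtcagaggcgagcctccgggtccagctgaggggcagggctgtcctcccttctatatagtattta
G6pc promoter: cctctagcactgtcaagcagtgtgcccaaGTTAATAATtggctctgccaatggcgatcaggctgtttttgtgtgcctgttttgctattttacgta
Glud1 p5: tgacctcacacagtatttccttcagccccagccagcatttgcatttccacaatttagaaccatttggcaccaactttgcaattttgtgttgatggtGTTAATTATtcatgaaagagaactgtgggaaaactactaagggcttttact
Glud1 p3: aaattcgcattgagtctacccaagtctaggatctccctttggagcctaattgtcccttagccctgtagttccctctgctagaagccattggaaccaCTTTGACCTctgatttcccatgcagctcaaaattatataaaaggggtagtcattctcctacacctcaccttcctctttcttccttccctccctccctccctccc
Pcx p14: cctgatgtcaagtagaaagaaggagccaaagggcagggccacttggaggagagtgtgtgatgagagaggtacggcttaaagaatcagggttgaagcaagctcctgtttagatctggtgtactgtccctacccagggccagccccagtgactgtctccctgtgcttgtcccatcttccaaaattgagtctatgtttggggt
Pcx p24: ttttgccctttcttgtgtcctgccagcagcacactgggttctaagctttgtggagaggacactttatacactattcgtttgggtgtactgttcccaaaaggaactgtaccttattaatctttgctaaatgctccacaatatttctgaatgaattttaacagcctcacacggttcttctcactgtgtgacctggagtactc

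A set of 6 motifs was searched on both strands in whole peaks. The HNF1 letters GTTAATNAT occurred in 2.22% of all peaks and in 3.33% of the member peaks, G6pc p1 and Glud1 p5. HNF1 factors are homeodomain proteins of liver and kidney epithelium. In G6pc the match began 221 bases upstream of the RefSeq start, which lies downstream of the printed stretch and inside the annotated gene, and of 32851 promoters 0.737% held these letters in the 250 bases upstream of the start. The nuclear receptor letters AGGTCAAAG occurred in 1.01% of peaks and in Glud1 p3, where they read on the minus strand. The HNF4 letters CAAAGTCCA occurred in 1.21% of peaks and in Fbp1 p7. The forkhead letters TGTTTAC occurred in 7.87% of all peaks and in 3.33% of the member peaks, Pcx p16 and Glul p3. The cAMP response letters TGACGTCA and the C/EBP letters TTGCGCAA were in no member peak, and 0.648% and 0.109% of all peaks held them. Only these exact letters were searched, so near matches, such as ttacgtca in the Pck1 promoter printed above, were not counted. A match is a description of letters, and the search in whole peaks was added after the data were seen. In the search first planned, of the centre of each peak, the HNF1 letters were in 1.67% of member peaks (Glud1 p5) and 1.49% of all peaks. The forkhead letters were in no member peak in that search, and 5.1% of all peaks held them.

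The 5 gluconeogenic genes had their highest levels in PCT and their second highest in PST at both stages. Pck1, at chr2:173153048-173159273, was the clearest case. At P0 it stood at 84.1 and 78.9 CPM in PCT and 66.6 and 71.4 in PST, and the next cluster, LOH, had a mean of 10.9. PCT and PST did not overlap at either stage, though the test between them was not passed at P0 or in the adult (adjusted p = 0.332 and 0.121). LOH and stroma1, the next in order at P0, did overlap. Fbp1, at chr13:62864753-62888282 on the minus strand, had 144 ± 3.49 CPM in PCT and 104 ± 1.21 in PST at P0 (SD, n = 2). Immune cells came next for Fbp1, with 72.8 ± 6.51, where the 4 summed PCT markers were at 65.6 and 54.6 CPM, and their part in this level was not tested. In the adult Fbp1 no longer separated the segments, at 155 ± 23.1 in PCT and 147 ± 25.8 in PST (SD, n = 3).

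G6pc, at chr11:101367561-101377903, had a single peak, over its start. In PCT its level was 28.5 and 30.2 CPM at P0. It was 4.84 and 4.03 in PST, 6.61-fold lower than PCT by the means, and 2.36 and 2.18 in LOH. Slc37a4, at chr9:44396852-44402968, was less restricted: PST and immune cells overlapped at P0, at 88.3 ± 5.32 and 84.8 ± 8.76. Pcx, at chr19:4510472-4621752, was open in every cluster, with a lowest cluster mean of 122 CPM in endothelium at P0, and still highest in PCT at 295 ± 6.80 at P0 and 351 ± 17.9 in the adult.

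The ammonia genes were spread more widely. Glud1, at chr14:34310727-34345265, was highest in immune cells at P0, at 136 ± 14.0 CPM, followed by PCT at 95.9 ± 5.12. In the adult its order was LOH at 131 ± 19.3, PCT at 129 ± 22.3 and the distal convoluted tubule (DCT) at 127 ± 11.9, and these neighbours did not differ beyond their spread. Glul, at chr1:153899944-153909723, also had its highest P0 level in immune cells, at 96.6 ± 17.9, and there PST, PCT and nephron progenitors overlapped at 75.1, 75.0 and 73.3. In the adult Glul was highest in PCT and PST, at 144 ± 10.3 and 136.5 ± 26.9, and lowest of all 13 clusters in LOH, at 27.4 ± 10.6. The map of levels over clusters shows these orders for all members.

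**Figure D1:**
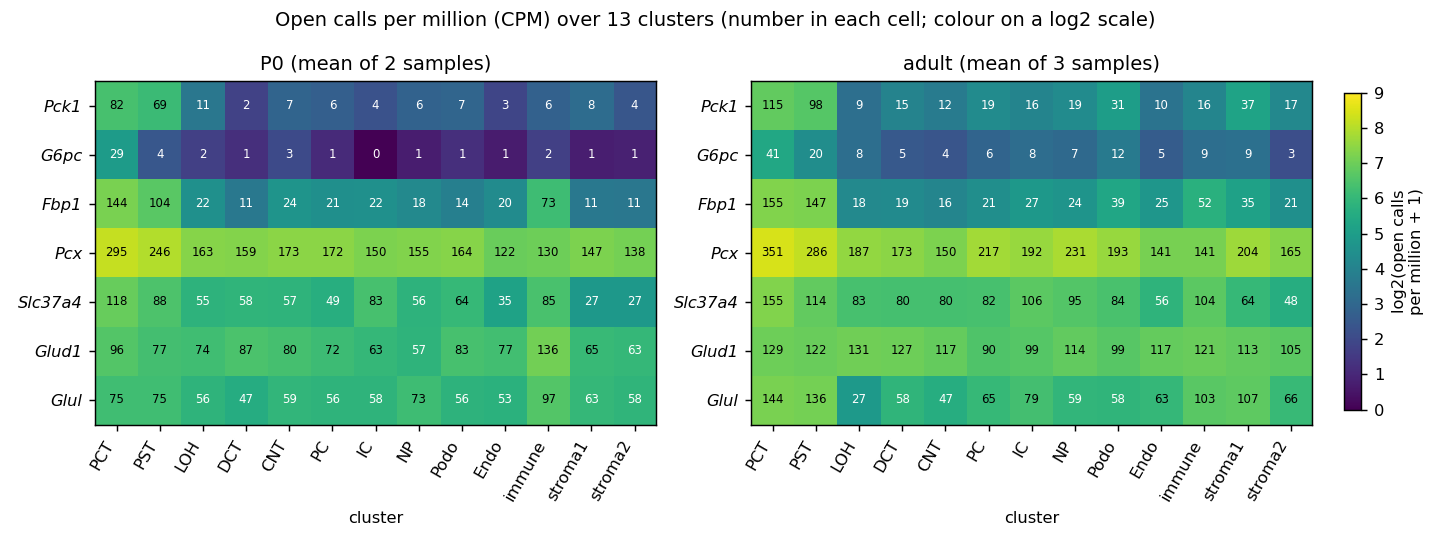
Mean level of each member gene (rows, in CPM) in the 13 clusters (columns) at P0 (left, 2 samples) and in the adult (right, 3 samples), with the colour on a log2 scale. Pck1, G6pc and Fbp1 are highest in PCT and next in PST, though G6pc in PST is only 4 at P0 and Fbp1 also reaches 73 in P0 immune cells, Pcx is open throughout, and adult Glul falls to 27 in LOH.

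Differences between clusters were tested on sums per cluster, with the sample as a block, by edgeR's quasi-likelihood test with Benjamini-Hochberg adjustment over all genes. The clusters were made from the same nuclei, so the p-values only rank genes and do not test the cell types independently. LOH was below PCT for 7 of 7 members at P0, where 29.9% of all genes tested were called in that direction, and for 6 of 7 in the adult, against 29.7% of all genes. In the adult the largest of these log2 differences was that of Pck1, at −4.14 (SE 0.24, adjusted p = 6.05e-07), and Glud1 did not pass, at −0.15 (SE 0.08, adjusted p = 0.127). Against nephron progenitors at P0, the cells from which the tubule forms, 6 of 7 members were lower in the progenitors, where 33.5% of all genes were called lower. G6pc differed by −5.53 (SE 0.29, adjusted p = 9.48e-77) and Glul did not pass, at −0.10 (SE 0.09, adjusted p = 0.32). PST was below PCT for G6pc, Pcx and Slc37a4 in the adult, 3 of 7 against 14.3% of all genes, and for these and Fbp1 at P0, 4 of 7 against 4.49%. Only G6pc was past the threshold at P0 with DESeq2.

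**Figure D2:**
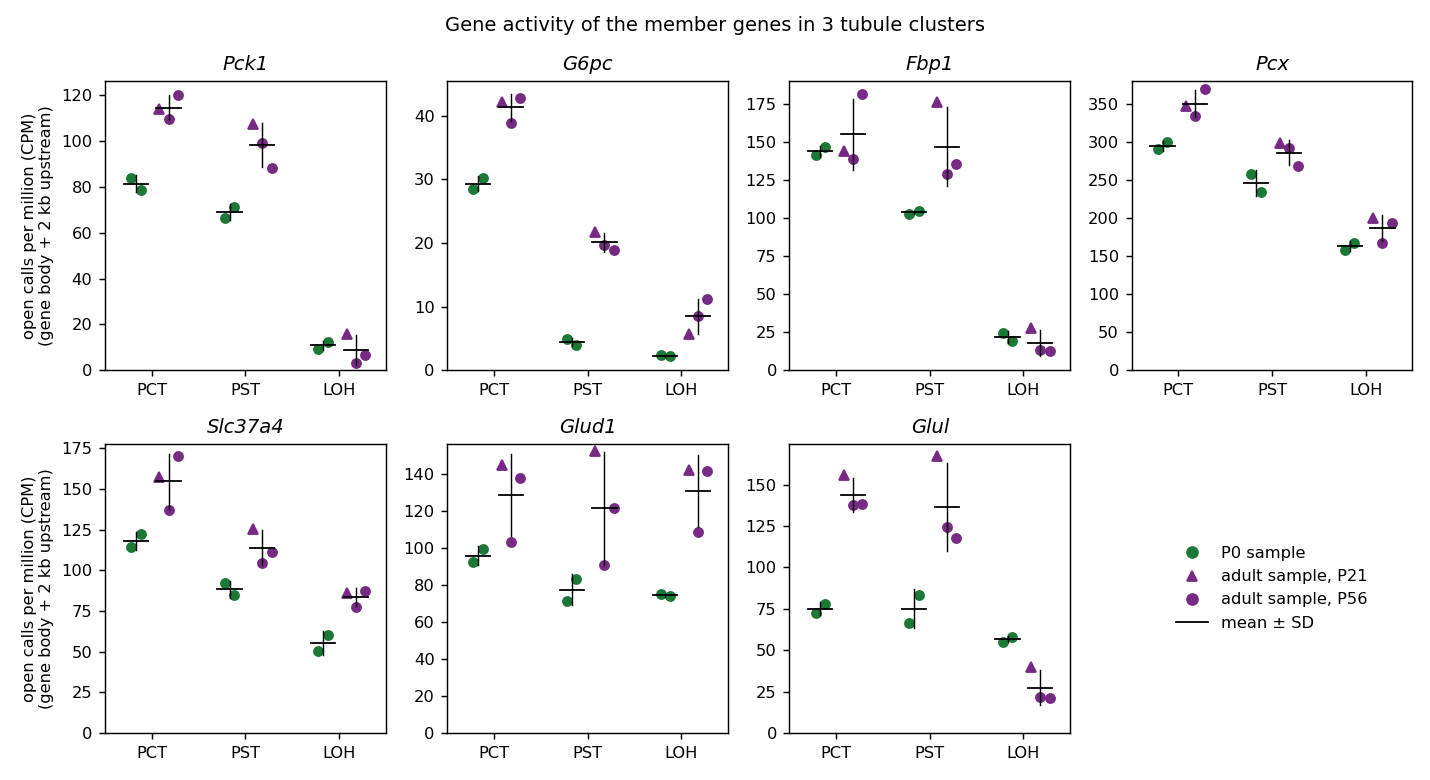
Level of each member gene, in CPM, in PCT, PST and LOH, with a point per sample and the mean ± SD of 2 P0 and 3 adult samples. In PCT the adult points of Pck1, G6pc, Pcx, Slc37a4, Glud1 and Glul all lie above both P0 points, and in LOH those of Glul lie below.

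Between birth and adulthood the proximal tubule clusters gained accessibility at most members. Markers of the PCT cluster differed between the stages too. Its summed PCT markers were at 331 and 329 CPM at P0 and at 593, 470 and 556 in the adult. There the mean of the summed stromal markers (Col3a1, Col1a1 and Pdgfrb) went from 45.45 to 23.5. The mean of the DCT markers (Slc12a3 and Pvalb) went from 96.55 to 176. The part of cluster content in the PCT results was not tested. Glul changed most in PCT. It stood at 72.3 and 77.7 CPM at P0 and at 156, 138 and 138 in adult replicates 1 to 3, so the stages did not overlap. The log2 fold change was 1.08 (SE 0.11, edgeR's quasi-likelihood test, adjusted p = 0.00033). Pck1 rose in PCT from 84.1 and 78.9 to 114, 110 and 120 CPM, also without overlap, a log2 fold change of 0.63 (SE 0.11, adjusted p = 0.00356). G6pc rose from 28.5 and 30.2 to 42.2, 39.0 and 42.9, by 0.64 (SE 0.14, adjusted p = 0.00822). Glud1 had 92.3 and 99.6 at P0 and 145, 103 and 138 in the adult, where replicate 2 lay just above the P0 samples, and rose by 0.56 (SE 0.15, adjusted p = 0.0176). Slc37a4 and Pcx rose by 0.53 and 0.39 (adjusted p = 0.011 and 0.0213).

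In all, 6 of 7 members rose in PCT and 0 fell, whereas over all 26840 genes tested 12.8% rose and 15.6% fell. The median log2 fold change was 0.56 over the members and 0.02 over all genes. Fbp1 did not pass, with 142 and 147 CPM at P0 against 144, 139 and 182 (log2 fold change 0.25, SE 0.14, adjusted p = 0.205), and its adult samples fell on both sides of the P0 samples. The calls for members other than Glul rested on having both P0 samples. Leaving either out leaves a single P0 sample with no spread of its own, so a lost call cannot be told from lost power. Without P0 replicate 1, and likewise without P0 replicate 2, Glul alone passed, and 5.50% and 5.93% of all genes were called in either direction, whereas without the P21 sample the same 6 did. With each nucleus thinned to 1000 open peaks, G6pc and Glul passed, 9.17% of all genes were called in either direction, and the log2 fold change of Pck1 was 0.36 (adjusted p = 0.244).

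In PST, 5 of 7 members rose and 0 fell, against 5.44% of all genes rising and 7.46% falling. Glul rose from 66.6 and 83.5 CPM to 167, 125 and 118, a log2 fold change of 0.90 (SE 0.18, adjusted p = 0.0104). Pck1 had 66.6 and 71.4 at P0 and 108, 99.2 and 88.5 in the adult, and rose by 0.57 (SE 0.16, adjusted p = 0.0363). Fbp1 and Glud1 rose by 0.55 and 0.69 (adjusted p = 0.0426 and 0.0461), while Slc37a4 and Pcx had 0.43 and 0.28 (adjusted p = 0.0815 and 0.163). The PST sums at P0 come from 195 nuclei, and without either P0 sample, or with thinned nuclei, 0 of 7 passed. In these fits 0.254% of all genes passed without P0 replicate 1, 0.132% without P0 replicate 2 and 0.306% with thinned nuclei, against 12.9% with all samples. With the batch number of the deposited sample names as a block, Pck1 and Fbp1 were lost and 3 of 7 passed, with 12.9% of all genes called.

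G6pc was the member whose stage difference differed between the segments. In PST it stood at 4.84 and 4.03 CPM at P0 and at 21.8, 19.6 and 19.0 in the adult, so the stages did not overlap. These P0 levels came from 83 and 112 nuclei, few of which had the single G6pc peak open. The rise was 2.24 on the log2 scale in PST (SE 0.39, adjusted p = 0.00536) and 0.64 in PCT. The difference of these differences, tested as an interaction with the sample as a block, was 1.65 (SE 0.39, adjusted p = 0.0288), and 1.84% of all genes were called with a larger difference in PST. The other members did not pass, with Fbp1 next at 0.35 (SE 0.20, adjusted p = 0.446). Adult PST still lay below adult PCT for G6pc, by 1.06 on the log2 scale. The interaction was no longer past the threshold without P0 replicate 1 (1.87, adjusted p = 0.195) or without P0 replicate 2 (1.46, adjusted p = 0.428). At P0 the 4 summed PCT markers stood at 331 and 329 CPM in PCT and 82.4 and 72.5 in PST. The 4 summed PST markers were then at 293 and 304 in PCT and at 260 and 309 in PST, so they did not separate the segments. In the adult they were at 469, 362 and 446.5 in PST. The part of cluster identity in the G6pc interaction was not tested.

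In LOH, where 22.8% of all genes rose and 29.3% fell, 3 members rose and 1 fell. Glul had 55.2 and 57.8 CPM at P0 and 39.7, 21.5 and 20.99 in the adult, so all adult samples lay below both P0 samples. Its log2 fold change was −1.06 (SE 0.22, adjusted p = 0.00227), the opposite direction to that in PCT and PST. Glud1 went from 75.0 and 73.8 to 142, 109 and 142, a rise of 0.88 (SE 0.15, adjusted p = 0.000729). G6pc rose by 2.04 (SE 0.41, adjusted p = 0.00194) at a low level, from 2.36 and 2.18 to 5.76, 8.45 and 11.2. Slc37a4 rose by 0.66 (adjusted p = 0.00559), and Pck1, Fbp1 and Pcx had −0.43, −0.33 and 0.26 (adjusted p = 0.446, 0.383 and 0.0883). With thinned nuclei Glud1 and Glul passed, when 27.4% of all genes were called in either direction against 52.1% with whole nuclei, and the difference for Glul was −1.65. The summed LOH markers (Slc12a1 and Umod) in this cluster were at 99.1 and 125 CPM at P0 and at 511, 440 and 527 in the adult. The summed progenitor markers (Six2, Cited1 and Uncx) had a P0 mean of 71.4 there, next to 133 in nephron progenitors. The part of cluster content in the LOH results was not tested.

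**Figure D3:**
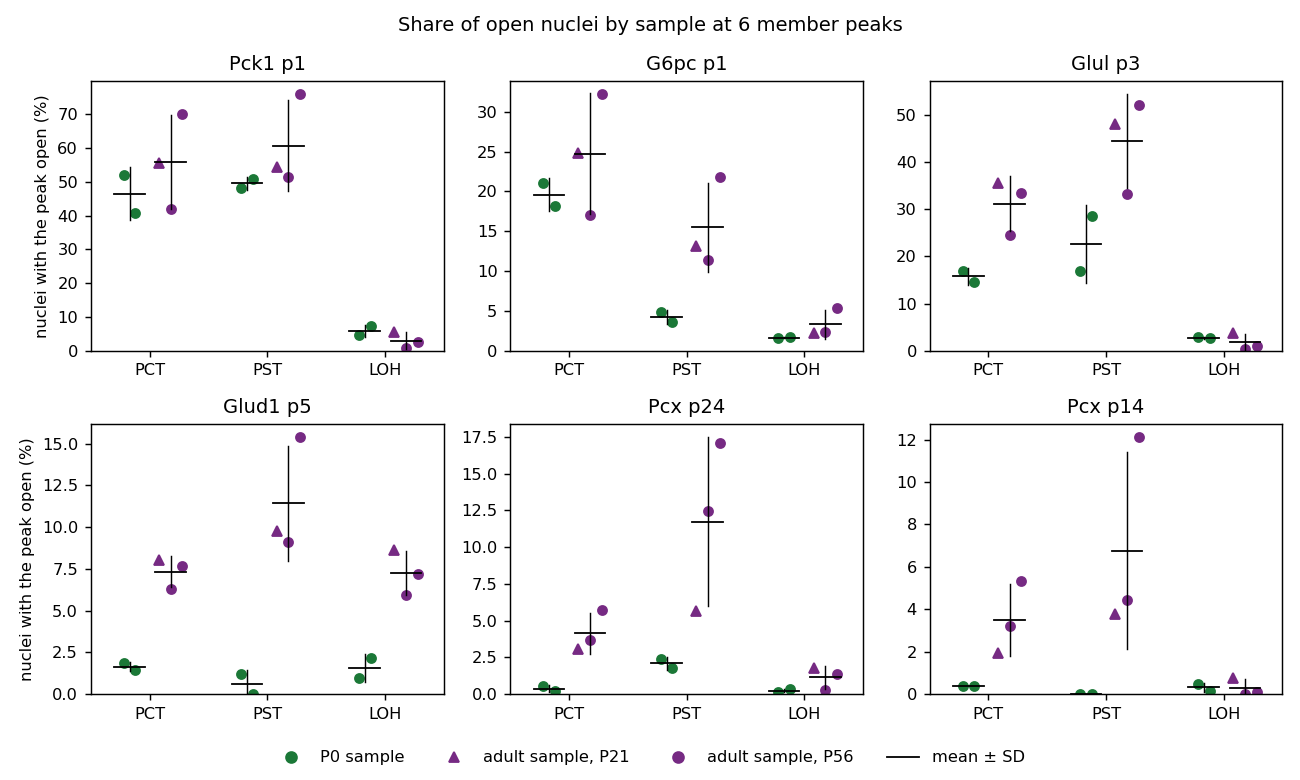
Share of nuclei with the peak open, in percent, at 6 member peaks in PCT, PST and LOH, with a point per sample and the mean ± SD of 2 P0 and 3 adult samples. In PCT the adult points of Glul p3, Glud1 p5, Pcx p24 and Pcx p14 lie above both P0 points, whereas those of Pck1 p1 and G6pc p1 overlap with them.

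Peaks were then taken singly. Of the 60 member peaks, 11 lay over an annotated start of the member itself. The start peak of Pck1, p1, was open in 52.1% and 40.9% of PCT nuclei at P0 and in 55.6%, 42.1% and 70.1% in the adult. The stages overlap as shares, with the shallow adult replicate 2 low. In edgeR's quasi-likelihood test on the open calls the log2 fold change was 0.64 (SE 0.21, adjusted p = 0.03). The start peak of G6pc, p1, was open in 21.02% and 18.1% of PCT nuclei at P0 against 24.8%, 17.0% and 32.3%. In PST it was open in 4.82% and 3.57% of nuclei at P0 and in 13.2%, 11.4% and 21.8% in the adult, without overlap. The mean difference in PST was 11.3 percentage points, and 1.75 points with thinned nuclei, where no P0 nucleus had the peak open.

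In PCT 53 of the 60 peaks passed the filter on low counts. Of these 20 rose and 4 fell, against 16.3% rising and 17.6% falling of 115761 peaks tested, and the median log2 fold change was 0.64 over the members tested and 0.02 over all. Over starts 5 of 11 rose, and elsewhere 15 of the 42 tested rose and 4 fell. The start peaks of Fbp1, Pcx, Slc37a4 and Glud1 did not pass, with log2 fold changes of 0.17, 0.39, 0.54 and 0.25 (adjusted p = 0.616, 0.197, 0.084 and 0.468). Without P0 replicate 1, 6 member peaks passed and 10.5% of all peaks were called in either direction, without P0 replicate 2 it was 10 and 11.9%, and with thinned nuclei 5 and 12.3%, against 24 and 33.9% with all samples. Pcx p24, Pcx p34 and Glul p3 were among those in each of these 3 alternatives.

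The most open peaks outside the start were also followed, with intronic peaks for 3 members and another annotated start for Slc37a4. Pck1 p2 was open in 10.1% and 6.46% of PCT nuclei at P0 and in 11.5%, 5.90% and 20.5% in the adult. It rose by 0.93 on the log2 scale in edgeR's test (SE 0.32, adjusted p = 0.038). Pcx p16 was open in 32.0% and 24.1% at P0 and in 40.3%, 25.5% and 49.3% in the adult, and rose by 0.81 (SE 0.21, adjusted p = 0.0102). Slc37a4 p2 was open in 21.2% and 19.9% at P0 and in 31.9%, 20.1% and 39.4% in the adult, and rose by 0.91 (SE 0.22, adjusted p = 0.00615). As shares the stages overlapped at these 3 peaks, with adult replicate 2 lowest of the adult samples in each. Fbp1 p2, open in 20.7% and 17.4% at P0 and in 21.5%, 13.5% and 39.1% in the adult, did not pass (0.69, SE 0.27, adjusted p = 0.0588).

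The largest rises on the log2 scale lay away from the main starts, at peaks that few P0 nuclei had open. Folds from so low a P0 share cannot be ranked against those of widely open start peaks. Pcx p24, an intronic peak 78.3 kb from the start whose sequence is given above, was open in 0.548% and 0.179% of PCT nuclei at P0. In the adult it was open in 3.03%, 3.66% and 5.70%, every sample above both P0 samples, with a log2 fold change of 3.86 (SE 0.53, adjusted p = 0.000219). In PST it went from 2.41% and 1.79% to 5.64%, 12.5% and 17.1%, again without overlap. Pcx p14, 44.95 kb into the gene, was open in 0.366% and 0.359% of PCT nuclei at P0 and in 1.93%, 3.21% and 5.31% in the adult (log2 fold change 3.61, SE 0.61, adjusted p = 0.000757). In PST it was open in 0 of 195 P0 nuclei, which allows a share of up to 1.54%, and in 139 of 1748 adult nuclei. Against a floor of 3 open calls over the P0 stage the adult rate per open call was at least 5.65-fold higher. Both bounds pool the nuclei of the P0 samples and cover counting error at P0 only.

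Glud1 p5, which covers the annotated start of a shorter transcript 21.3 kb into the gene and holds the HNF1 letters, was open in 1.83% and 1.44% of PCT nuclei at P0. In the adult it was open in 8.06%, 6.30% and 7.66%, every sample above both P0 samples. The log2 fold change was 2.56 in PCT (SE 0.32, adjusted p = 0.00014). In LOH the shares went from 0.945% and 2.15% to 8.63%, 5.95% and 7.18%, with 3.32 (SE 0.36, adjusted p = 5e-08). In PST 1 P0 nucleus and 213 adult nuclei had it open, a ratio of rates of 26.0 with an exact 95% interval from 4.61 to 1031 that covers counting error only. Thinning left a rise of 0.848 percentage points in PCT and 2.14 in PST.

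Glud1 p3, an intronic peak 1.99 kb from the start with the nuclear receptor letters, rose by 1.31 in PCT (SE 0.25, adjusted p = 0.00159), and in LOH it had 0.55 (adjusted p = 0.151). In PCT its shares were 9.32% and 8.44% at P0 and 18.1%, 10.3% and 24.2% in the adult, all adult samples above P0. All 3 peaks of Glul rose in PCT. The downstream one, p3, overlaps the end of the gene and was open in 17.0% and 14.5% of nuclei at P0 and in 35.5%, 24.5% and 33.5% in the adult (log2 fold change 1.37, SE 0.22, adjusted p = 0.000538). The intronic p2 went from 2.38% and 0.898% to 6.90%, 4.47% and 11.2% and rose by 2.55 (SE 0.39, adjusted p = 0.000395).

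A total of 4 member peaks fell in PCT. Pcx p34, which also lies in Lrfn4, was open in 18.1% and 13.6% of nuclei at P0 and in 4.32%, 2.28% and 5.53% in the adult, a log2 fold change of −1.63 (SE 0.25, adjusted p = 0.000427). Fragments there cannot be assigned to one of the genes. Some peaks above lie near other genes too. Glul p1 and p2 also lie in Teddm2 or the 2 kb upstream of it, Slc37a4 p2 lies upstream of Mir7085, and Glud1 p1 and p2 lie in Shld2 or upstream of it, so their open calls count for these genes as well. Pcx p13, Fbp1 p8 and Glud1 p7 fell by 1.28, 1.40 and 1.80 on the log2 scale (adjusted p = 0.0194, 0.0237 and 0.00714).

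In PST 30 member peaks passed the filter, of which 5 rose and 2 fell, against 9.04% rising and 6.99% falling of 45868 peaks. Those that rose were G6pc p1, Pcx p14, Pcx p24, Glud1 p5 and Glul p3, and those that fell were Pcx p30 and Pcx p34. With no filter on low counts, where 6.84% of all peaks were called in either direction, 21 rose and 0 fell, and the value of Pck1 p1 went from 0.55 to 1.17. In LOH 25 passed, of which 10 rose and 3 fell, against 24.4% rising and 29.9% falling of 89743 peaks. Glul differed by segment here as well. Its start peak, p1, was open in 34.0% and 31.2% of PCT nuclei at P0 and in 49.3%, 31.2% and 59.2% in the adult. The rise on the log2 scale in edgeR's test was 0.86 (adjusted p = 0.00858). In LOH p1 went from 30.7% and 37.3% to 10.9%, 5.09% and 8.29%, without overlap, and fell by 1.01 (SE 0.24, adjusted p = 0.000805). The markers of the LOH cluster, given above with its genes, also differed between the stages, and their part here was not tested.

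**Figure D4:**
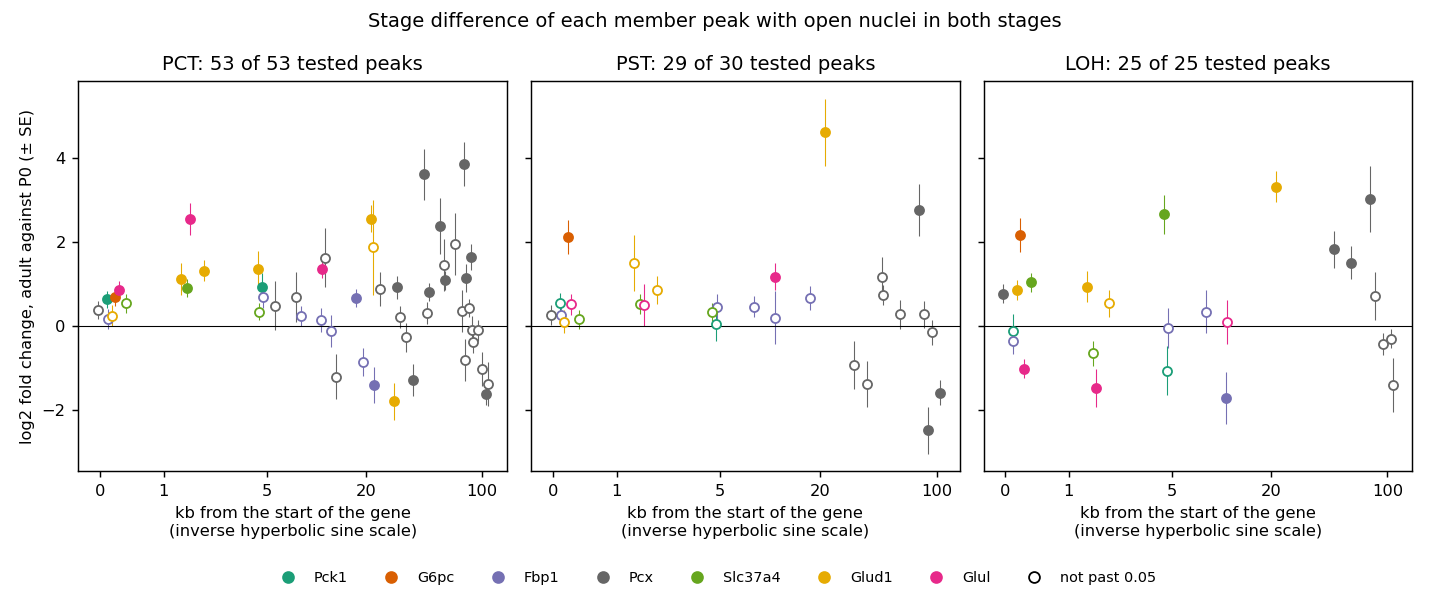
Log2 fold change between adult and P0 (vertical, ± SE) against the distance of each tested member peak from the start of its gene (horizontal, in kb, on an inverse hyperbolic sine scale), in PCT, PST and LOH. Filled points passed an adjusted p of 0.05. Pcx p14 in PST, open in 0 P0 nuclei, is left out, and the point of Glud1 p5 there rests on 1 open P0 nucleus. The highest points in PCT lie 44.95 and 78.3 kb into Pcx, at peaks that few P0 nuclei had open.

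Members also rose in some other clusters, described next, and the adult means of the PCT markers were higher both there and in clusters where no member passed. In stroma1, a stromal cluster, where 14.0% of all genes rose, 5 of the 6 members tested did. Pck1 had 5.75 and 10.3 CPM there at P0 and 61.2, 13.5 and 35.4 in the adult (log2 fold change 2.06, SE 0.43, adjusted p = 0.000873), and Fbp1 rose by 1.52 (adjusted p = 0.00355). Fbp1 had 12.0 and 10.6 CPM at P0 and 51.0, 10.1 and 42.9 in the adult, where replicate 2 lay below both P0 samples. The 4 summed PCT markers were at 30.9 and 37.9 CPM in these P0 samples and at 160, 47.1 and 151 in the adult ones. Adult replicate 2 was the lowest adult sample for Pck1, Fbp1 and these markers. The stromal markers of this cluster (Col3a1, Col1a1 and Pdgfrb summed) fell from 238 and 243.5 to 105, 155 and 166, and the part of this fall was not tested. In podocytes, where 5.76% of all genes rose, Pck1 and Fbp1 rose by 2.17 and 1.50 (adjusted p = 0.0074 and 0.0286). Pck1 went from 8.53 and 4.91 CPM to 31.1, 21.1 and 41.2, without overlap. Fbp1 went from 16.3 and 11.45 to 15.6, 27.4 and 74.2, so its stages overlapped. The PCT markers in podocytes went from 46.6 and 27.3 to 114, 78.0 and 103. In PCT itself the same markers went from 331 and 329 to 593, 470 and 556, and in LOH they were 44.6 and 49.4 at P0 and 81.2, 16.6 and 34.5 in the adult. In podocytes 0 members passed without P0 replicate 1 or 2, when 2.99% and 3.87% of all genes were called in either direction, and Pck1 alone did without adult replicate 3, when 7.82% were, against 10.8% with all samples. In stroma1 2 members passed without P0 replicate 1 (Slc37a4 and Glul), without P0 replicate 2 (Pck1 and Slc37a4) or without adult replicate 3 (Pck1 and Glud1), when 10.1%, 13% and 10.5% of all genes were called, against 30.5% with all samples.

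The rise of Pck1 was also found in stroma2, another stromal cluster, in endothelium and in principal cells of the collecting duct. In stroma2, where 16.6% of all genes rose, Pck1, Slc37a4 and Glud1 did, and Pck1 went from 3.90 and 4.78 CPM to 23.9, 10.6 and 17.3 (log2 fold change 1.83, SE 0.33, adjusted p = 0.000968). In endothelium, where 11.4% of all genes rose, the same 3 members did, with Pck1 at 1.76 (SE 0.49, adjusted p = 0.0182). Its level there was low, at 2.11 and 3.26 CPM at P0 and 14.3, 6.31 and 8.66 in the adult. In principal cells, where 12.4% rose, Pck1 and Slc37a4 did, by 1.61 and 0.68 (adjusted p = 0.0127 and 0.00495). Pck1 had 5.97 and 5.25 CPM there at P0 and 31.3, 6.99 and 19 in the adult, where replicate 2 lay just above the P0 samples. The PCT markers went from 29.0 and 33.0 to 79.7, 34.6 and 87.7 CPM in stroma2, from 37.7 and 39.8 to 82.5, 44.7 and 51.9 in endothelium, and from 30.6 and 36.0 to 116, 33.8 and 99.2 in principal cells. The part of these markers in the results of these clusters, of stroma1 and of podocytes was not tested. Without P0 replicate 1 or 2, 0 members passed in endothelium, when 3.64% and 5.57% of all genes were called in either direction, against 25.3% with all samples. In principal cells 0 passed without P0 replicate 1, P0 replicate 2 or adult replicate 3, when 5.85%, 7.54% and 16.0% of all genes were called, and 5 passed without adult replicate 2, when 40.4% were, against 29.7% with all samples. In stroma2 Pck1 alone passed without P0 replicate 1 or 2, with 12.0% and 12.6% of all genes called, and 5 members did without adult replicate 2, with 47.2%, against 37.4% with all samples. In DCT, connecting tubule, intercalated and immune clusters 0 members passed edgeR's quasi-likelihood test, and 1 of 4, 3 of 5, 1 of 5 and 0 of 5 members tested had an unadjusted p under 0.05. Of all genes 1.38%, 9.74%, 0.265% and 0.00% rose in these clusters. The mean PCT markers went there from 37.6 to 71.7 CPM in DCT, from 30.2 to 44.6 in connecting tubule, from 42.0 to 86.5 in intercalated cells and from 60.1 to 136 in immune cells. The connecting tubule markers (Calb1 and Trpv5 summed) were higher in DCT than in connecting tubule at P0, at 105 against 73.3 CPM. In the adult they were at 94.7 in DCT and 273 in connecting tubule. With a sample left out, Fbp1 fell in connecting tubule without adult replicate 1 and Glud1 rose there without adult replicate 2, when 20.7% and 42.7% of all genes were called in either direction, and Glud1 rose in intercalated cells without adult replicate 2, when 10.3% were.

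The cluster named for nephron progenitors had lower progenitor markers in the adult, where it held 52, 90 and 53 nuclei. Six2, a transcription factor of progenitors, was at 0, 0 and 2.71 CPM there against 56.8 and 56.6 at P0, and the summed progenitor markers (Six2, Cited1 and Uncx) had means of 29.3 in the adult and 133 at P0. The summed markers of LOH (Slc12a1 and Umod) and of DCT (Slc12a3 and Pvalb) went in the same cluster from means of 30.4 and 29.2 to 96.3 and 110. The DCT markers also rose in other clusters, as in stroma1 from 25.8 to 124, and had a mean of 204 in adult PST. The progenitor sum was still highest in this cluster in the adult, against 25.0 in podocytes. Between its P0 and adult nuclei 18.5% of all genes were higher in the adult, and so were Pcx, Slc37a4 and Glud1 (adjusted p = 0.0444, 0.0072 and 0.000226). This difference cannot be told apart from a change in the kind of nuclei the cluster holds. Glud1 alone passed there without P0 replicate 1 or adult replicate 3, when 24.3% and 26.2% of all genes were called in either direction.

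Other genes of the same pathways were counted in PCT from 3 lists. Of 16 further genes of gluconeogenesis 4 rose and 0 fell, with a median log2 fold change of 0.26. Among them were Ldha, which interconverts lactate and pyruvate, at 0.84 (SE 0.12, adjusted p = 0.00117), the basolateral glucose transporter Slc2a2 at 0.49 (adjusted p = 0.027) and Mdh1, an enzyme that interconverts malate and oxaloacetate. Of 10 genes of ammonia and glutamine handling 3 rose and 1 fell. The glutamine transporter Slc38a3 fell by 1.50 (SE 0.20, adjusted p = 0.000855), and the amino acid transporters Slc7a8 and Slc7a7 rose by 0.84 and 0.45 (adjusted p = 0.00148 and 0.0301). Of 12 glycolytic and regulatory genes 0 rose and 4 fell, with a median of −0.11. Pfkp, a phosphofructokinase, fell by 1.96 (SE 0.15, adjusted p = 0.000131), and the hexokinases Hk1 and Hk2 fell by 1.71 and 1.37 (adjusted p = 0.000283 and 0.00429). Over all genes tested in PCT 12.8% rose and 15.6% fell, which is the measure for these counts. In PST, where 5.44% of all genes rose and 7.46% fell, 1 of the 15 gluconeogenic genes tested rose (Ldha) and 0 fell, and of the 12 glycolytic genes tested 0 rose and 2 fell, Hk2 among them. Of the 10 ammonia genes tested 0 passed edgeR's quasi-likelihood test there, and 2 had an unadjusted p under 0.05. In LOH, where 22.8% of all genes rose and 29.3% fell, 9 of the 16 gluconeogenic genes rose and 1 fell, with a median of 0.48. There 2 ammonia genes rose and 3 fell, and 5 glycolytic genes rose and 4 fell. In principal cells, where 12.4% of all genes rose and 17.2% fell, 6 gluconeogenic genes rose and 1 fell. Rises in the gluconeogenic list were therefore not confined to the proximal tubule.

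The likeness of patterns was described by Pearson's r of log2(CPM + 1) over the 65 sums of 13 clusters and 5 samples, across 27681 genes. Sums of a sample share its library and depth, so r is a description. Pck1 was most like 4930442L01Rik (r = 0.932), Gm17120 (0.928) and Fmo4 (0.923), and G6pc most like Gm26697 (0.829), Acsm2 (0.828) and Rdh16 (0.817). Fbp1 was most like Susd3 (0.886), Slc13a3 (0.864) and Gm16170 (0.862), and Pcx most like Cd160 (0.888), Slc2a2 (0.887) and Lrp2 (0.864). Slc37a4 was most like Slc9a3r1 (0.905), Map3k5 (0.904) and Tbc1d10a (0.878). Glud1 was most like Esrra (0.840), Slc22a5 (0.832) and Pknox1 (0.829), and Glul had the lowest values, with Sipa1l1 (0.746), Slc6a6 (0.738) and Fcgr2b (0.726). Among the members r was highest between Pck1 and Pcx (0.830) and lowest between Glud1 and Glul (0.210).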

How the data were processed

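The authors mapped the libraries with Cell Ranger ATAC 1.1.0 to mm10 (GRCm38), filtered barcodes by fragments, mitochondrial share and promoter ratio, called peaks with MACS2 in each cluster on nuclei of all samples pooled, and merged them. The deposited values are counts of 0 or 1 per nucleus and peak, not scaled for depth, so a peak counts once however many fragments it holds. How doublets were treated in the nuclei is not given in the sources used here, and no caller was run. Cluster names are the deposited ones, and 664 nuclei outside the 13 named clusters were left out.

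Genes were placed with GENCODE M21, and promoters came from the RefSeq table for GRCm38. Open calls were summed per sample and cluster, since the sample is the replicate, and tested with edgeR 4.0.16 (quasi-likelihood test, TMM, a minimum count of 10 and total of 15, Benjamini-Hochberg at 0.05 over all features, R 4.3.3). Log2 fold changes are edgeR's after TMM scaling, which CPM does not have, so they can differ from ratios of CPM. SE is the absolute log2 fold change over the square root of the F statistic. Nothing says whether samples came from separate animals, so p-values measure the spread between these samples. The study lysed P0 kidneys in a smaller volume of buffer than the older ones, so this step cannot be told apart from stage. With 2 against 3 samples an exact permutation test cannot reach 0.05, and none was run. With a P0 sample left out, the spread comes from the adult samples alone. Alternatives were DESeq2 1.42.0, its size factors, no filter, each sample left out, nuclei thinned to 1000 open peaks (811 shallower nuclei left out), equal nuclei per sample, other gene windows, and a block for the batch number in the deposited sample names. The study's methods number the 5 samples as 5 separate batches, so that block was kept as an alternative: deviations of number 1 from number 2 had r = 0.165 between P0 and P56 in PCT, with only 2 pairs, and within a batch there are too few samples for a test.

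The members, lists and motifs were chosen with earlier results of these data known. Named peaks were the start peak, the highest adult PCT or PST peak elsewhere, and the largest called change in PCT and in PST, and from each pathway list the 3 largest called changes in PCT, some of which are not reported here. Mdh1 and the peaks named outside that rule (Fbp1 p7, Glud1 p7 and Pcx p4, p13, p30 and p34) were chosen after their values were seen. The scripts were tested on simulated data. Bulk ATAC-seq and scRNA-seq levels of the members were not analysed here.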

Additional observations from a re-analysis of the deposited data

Results flagged for a closer look

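G6pc, whose product releases free glucose, was flagged because its difference between the stages was not the same in the segments: the rise from P0 to adult was larger in PST than in PCT by 1.65 on the log2 scale (SE 0.39, edgeR's quasi-likelihood interaction test, adjusted p = 0.0288). All 3 adult PST samples lay above both P0 samples. The P0 levels in PST came from 83 and 112 nuclei, few of which had the single G6pc peak open. Leaving out an adult sample gave 1.64 to 1.76 with adjusted p from 0.0195 to 0.0365, and leaving out a P0 sample ended the call, at 1.87 (adjusted p = 0.195) without replicate 1 and 1.46 (adjusted p = 0.428) without replicate 2.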

How the results depend on the processing

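The alternatives gave 1185 values for 146 results, of which 972 were labelled the same as the main result and 26 changed sign. Of the others, 107 kept their direction but lost a call, 30 gained a call, and 50 were counts or shares that moved. A single gene or peak was the same when it kept its direction and its side of the threshold. A count was the same when close to the main count, a share when within the SD, and a motif count when equal. With thinned nuclei the members called were 2 genes in PCT, 0 in PST and 2 in LOH, and 5, 0 and 3 peaks, and the rise in share was 1.75 points for G6pc p1 in PST and 0.848 and 2.14 for Glud1 p5 in PCT and PST. DESeq2 called 3 genes in PST and 1 between PST and PCT at P0. Equal nuclei gave 2 genes and 4 peaks in PST, and no filter gave 21 peaks in PST. With the replicate block, which used the batch number of the deposited sample names, 3 genes were called in PST (Pck1 and Fbp1 at adjusted p = 0.058 and 0.0589), Fbp1 p2 was gained in PCT (0.72, adjusted p = 0.0256), and PCT kept 6 genes.

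Leaving out 1 sample gave 1 to 6 genes called in PCT, 0 to 4 in PST, 0 to 2 in podocytes, 2 to 7 in stroma1, 1 to 5 in stroma2, 0 to 4 in endothelium, 0 to 5 in principal cells, 1 to 4 in the cluster named for nephron progenitors, 0 to 1 in connecting tubule and in intercalated cells, 0 to 1 for the interaction (1.46 to 1.87 for G6pc), and 6 to 32 peaks in PCT, 0 to 11 in PST and 6 to 15 in LOH. The lowest counts in PCT and PST came without a P0 sample. Without adult replicate 2, the shallowest sample, 32 member peaks in PCT and 11 in PST were called, with 42.1% and 19.5% of all peaks, against 33.9% and 16.0% with all samples. Peaks of low share rest on few open nuclei: Pcx p14 in PST, open in 0 of 195 P0 nuclei, has only a lower bound.

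Signs turned only for values that were not called. Thinning turned Slc37a4 in PST (−0.089), Fbp1 in LOH (0.075) and, in PCT, Fbp1 p1 (−0.42), Pcx p1 (−0.091) and Glud1 p1 (−0.013). Equal nuclei turned Fbp1 p1 in PCT (−0.077), Glud1 p1 in PST (−0.011) and Pck1 p1 in LOH (0.0016), and no filter turned Glul between PST and PCT at P0 (−0.025). With a sample left out the ranges were −0.27 to 0.10 for Fbp1 between PST and PCT in the adult, and −0.058 to 0.12, −0.15 to 0.10 and −0.16 to 0.12 for the interactions of Pck1, Pcx and Slc37a4. For peaks they were −0.048 to 0.33 for Fbp1 p1 in PCT, −0.32 to 0.35 for Pck1 p2 and −0.057 to 0.35 for Glud1 p1 in PST, and in LOH −0.41 to 0.35 for Fbp1 p2, −0.66 to 0.28 for Pck1 p1 and −0.72 to 0.51 for Glul p3. The cause was not tested.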

Other observations

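In adult PST 2 member peaks were open mainly in 1 sample. Glud1 p7, 29.5 kb from the start over an exon, was open in 0% and 0.761% of nuclei in adult replicates 1 and 2 and in 12.0% in replicate 3, against 3.61% and 2.68% at P0. Pcx p4 was open in 0%, 3.35% and 0.485% of adult nuclei and in 0% and 0.893% at P0. In adult PCT neither stood out in a sample, at 0.366% to 0.740% for Glud1 p7 and 0.529% to 0.774% for Pcx p4.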
